A study of Mus musculus with 4 samples.

Results

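The inflammasome and pyroptosis genes described here are *Nlrp3*, *Nlrc4*, *Aim2*, *Mefv*, *Pycard*, *Casp1*, *Casp4*, *Gsdmd* and *Il18*. They were taken by symbol from the deposited expression values, and 9 of 9 were listed among 15298 genes. RNA of peritoneal macrophages, sorted as CD11b+ F4/80+ Ly6G- cells from female BALB/c mice aged 6 weeks, was sequenced in 4 libraries, 1 for each condition. Mice in the microcurrent stimulation (MCS) group received current through pads on the abdomen and back under isoflurane, and controls were handled alike, anesthesia included, without current. The libraries at zeitgeber time (ZT) 2 were taken right after the end of MCS and those at ZT14 were taken 12 h later, so each ZT14 library came from mice handled at ZT2. The sources used here do not state how many mice were pooled for a library. With 1 library per condition no value can be checked in replicates, and the intervals below cover counting error in single libraries.

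An inflammasome is a protein complex that macrophages assemble when a sensor detects a pathogen or cell damage. The sensor recruits the adaptor ASC, encoded by *Pycard*, which gathers and activates caspase-1. Caspase-1 cleaves the precursors of interleukin-1β and interleukin-18 and cuts gasdermin D, whose fragments form pores in the membrane and lead to the lytic cell death called pyroptosis. Caspase-11, encoded by mouse *Casp4*, cuts gasdermin D directly when it binds bacterial lipopolysaccharide in the cytosol. REV-ERBα and REV-ERBβ, encoded by *Nr1d1* and *Nr1d2*, are repressors of the circadian clock, and the literature on mouse macrophages describes *Nlrp3* among the genes they repress. The day difference of the inflammasome genes was therefore set beside that of the REV-ERB genes.

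Levels are given as CPM, read counts scaled to library size, and each could be turned back into whole reads with a tolerance of 0.05 read. The libraries held between 8365590 and 9953243 reads in the listed genes, and 1 read equaled between 0.102 and 0.116 CPM. The genes of the 3 sorting markers were looked up. *Adgre1*, which encodes F4/80, was at 1086 to 1900 CPM, and *Itgam*, which encodes CD11b, was at 4214 to 5162 CPM. *Ly6g* was not listed, which does not show that it was absent. The B cell gene *Ighm* and the T cell gene *Trac* were not listed either, while other markers of these cells were. The purity of the sort was not tested. Log2 ratios were taken after adding 0.1 CPM to both values. The criterion for a difference was a log2 ratio beyond 1 in either direction, asked of genes whose 2 libraries averaged above 0 on the log2 CPM scale. All 9 genes passed the expression minimum in each comparison.

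*Nlrp3* had the largest day difference of the 9 genes in the control libraries, 2.18-fold, and one of 1.12-fold in the MCS libraries. It was at 41.6 CPM in control at ZT2, 19.0 CPM in control at ZT14, 40.1 CPM with MCS at ZT2 and 35.9 CPM with MCS at ZT14. The control library at ZT14 stood apart below the other 3, whose counting intervals overlapped. *Pycard* was at 57.9, 40.6, 45.9 and 80.8 CPM in the same order, highest in MCS at ZT14. *Mefv* was at 1.96, 1.87, 5.80 and 0.511 CPM, highest in MCS at ZT2 and lowest in MCS at ZT14, from between 5 and 50 reads. *Aim2*, *Casp4* and *Il18* stayed close between the libraries, each with overlapping counting intervals throughout.

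**Figure D1:**
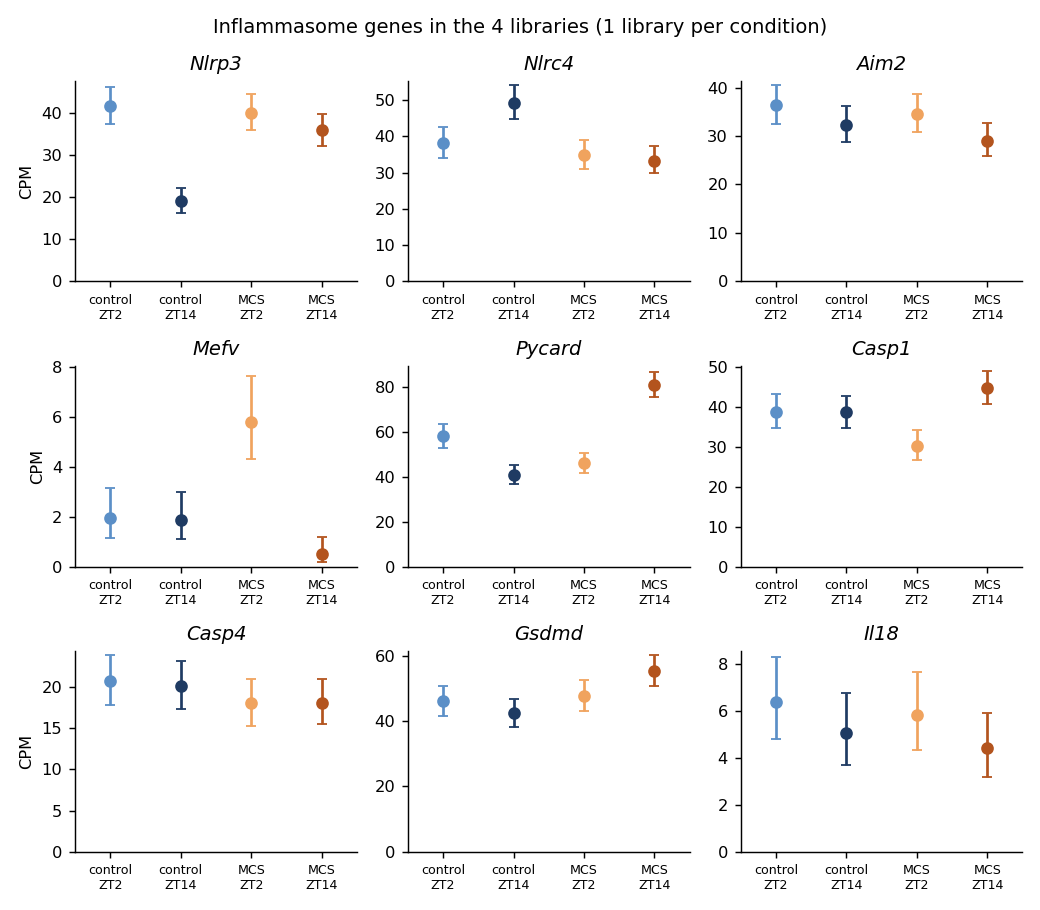
Level of each of the 9 genes in CPM (vertical axes, each from 0) in the 4 libraries, with exact Poisson 95% intervals on the reads. *Nlrp3* is low in the control library at ZT14 (19.0 CPM), *Pycard* is high in the MCS library at ZT14 (80.8 CPM) and *Mefv* is high in the MCS library at ZT2 (5.80 CPM).

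The 4 sensors of the set sense different signals. NLRP3 responds to ion fluxes and organelle damage. *Nlrp3* (chromosome 11, 59541568 to 59566956, plus strand, GRCm38, 10 exons in its longest coding transcript) was 2.18-fold higher at ZT2 than at ZT14 in control, a log2 ratio of 1.13 (95% interval 0.86 to 1.40). In the MCS libraries the same log2 ratio was 0.16 (-0.06 to 0.38). At ZT14 the MCS library was 1.88-fold above control, a log2 ratio of 0.91 (0.65 to 1.19), and at ZT2 the log2 ratio of MCS to control was -0.05 (-0.27 to 0.17). The comparison of times in control and the comparison of MCS with control at ZT14 share the control library at ZT14, so their values are not independent. On the log2 scale without an added constant, the day difference was smaller by 0.97 in MCS than in control (-0.97, 95% counting interval -1.31 to -0.63).

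NLRC4 forms a complex with NAIP proteins that bind bacterial flagellin and secretion needle proteins. *Nlrc4* (chromosome 17, 74425438 to 74459142, minus strand) was at 38.1 CPM in control at ZT2, 49.2 CPM in control at ZT14, 34.9 CPM with MCS at ZT2 and 33.3 CPM with MCS at ZT14. The control library at ZT14 was the highest, where *Nlrp3* had its lowest value. At ZT14 the log2 ratio of MCS to control was -0.56 (-0.77 to -0.35), and its day difference in control was -0.37 (-0.58 to -0.16) against 0.07 (-0.16 to 0.30) in MCS, a change by 0.44 (0.13 to 0.74).

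AIM2 binds DNA in the cytosol. *Aim2* (chromosome 1, 173350879 to 173466040, plus strand) stood at 36.4 (ZT2) and 32.3 CPM (ZT14) in control and at 34.6 and 29.0 CPM in MCS. Its log2 ratios lay between -0.15 for MCS against control at ZT14 and 0.25 for ZT2 against ZT14 in MCS (0.01 to 0.49), and its day difference changed by 0.08 between control and MCS (-0.25 to 0.41). It overlaps *Cadm3* on the opposite strand and shares a stretch of 297 aligned bases at 90.2% identity with *Uba1y*. Both were listed as genes of their own, so a part of the reads of *Aim2* could have been divided among them. A longer stretch, 607 aligned bases at 94.2% identity, is shared with *Gm7871*, which was not listed.

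*Mefv* (chromosome 16, 3707218 to 3718097, minus strand) encodes pyrin, a sensor known for its expression in neutrophils and monocytes. With 17, 17, 50 and 5 reads in control at ZT2, control at ZT14, MCS at ZT2 and MCS at ZT14 it was the least abundant of the 9 genes. The log2 ratio of MCS to control was 1.52 at ZT2 (0.74 to 2.45) and -1.69 at ZT14 (-3.66 to -0.37). With 1 CPM added in place of 0.1 CPM the ratio at ZT14 was -0.92, under the criterion. Between the MCS libraries it was 9.65-fold higher at ZT2, a log2 ratio of 3.27 (2.19 to 5.19), while in control the ratio was 0.07 (-0.99 to 1.13).

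Each of the 9 listed neutrophil markers, of 10, had its highest value in MCS at ZT2, as *Mefv* did, and *Camp* and *Ngp* were at 0 in at least 1 library. *Csf3r*, which encodes the G-CSF receptor and is also made by macrophages, was the most abundant with 143, 193, 205 and 163 CPM. The other 8 summed to 31.9 CPM in control at ZT2, 33.5 CPM in control at ZT14, 111 CPM with MCS at ZT2 and 19.4 CPM with MCS at ZT14. *S100a9*, a calcium-binding protein abundant in neutrophils, was at 6.70, 9.23, 33.5 and 1.23 CPM, and *Ltf*, the lactoferrin of neutrophil granules, was at 1.15, 0.879, 9.28 and 0.511 CPM. *Mefv* and this sum were thus both highest in MCS at ZT2 and lowest in MCS at ZT14. With *Csf3r* included, the sum was 175, 226, 316 and 183 CPM, lowest in control at ZT2. *Retnlg* (2.31, 2.20, 7.19 and 5.93 CPM) and *Mmp8* (0.693, 1.65, 5.10 and 0.716 CPM) were not lowest in MCS at ZT14 either. The part of neutrophil RNA in the *Mefv* values was not tested, and in bulk RNA a different number of cells cannot be told apart from a different amount of RNA per cell.

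**Figure D2:**
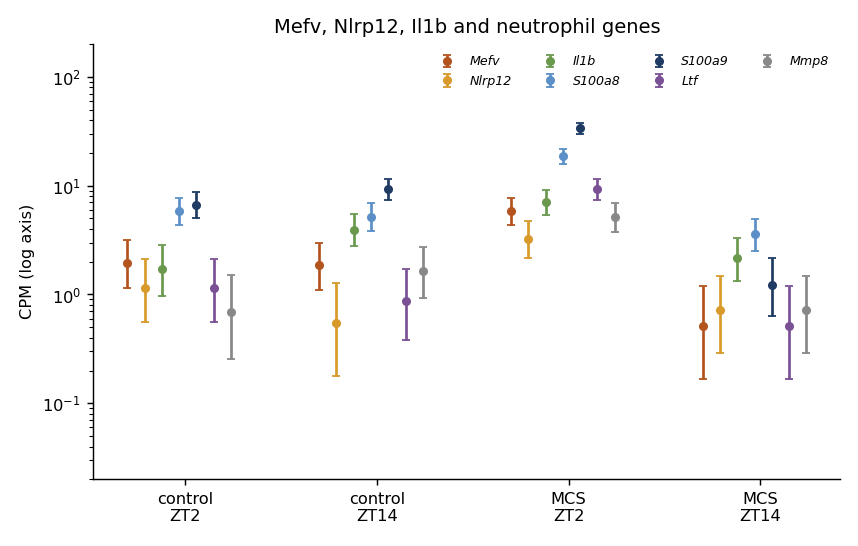
CPM on a log axis of *Mefv*, of 2 further pathway genes (*Nlrp12* and *Il1b*) and of 4 neutrophil markers in each library, with exact Poisson 95% intervals on the reads. In MCS at ZT2 each of the 7 genes has its highest value, with *S100a9* at 33.5 CPM and *Mefv* at 5.80 CPM.

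Downstream of the sensors, the adaptor gene *Pycard* (chromosome 7, 127989708 to 127993867, minus strand, 3 exons) was 1.99-fold higher in MCS than in control at ZT14, a log2 ratio of 0.99 (0.81 to 1.17) just under the criterion. At ZT2 it was lower in MCS, with a log2 ratio of -0.33 (-0.53 to -0.14). The day difference was 0.51 in control (0.31 to 0.71) and -0.81 in MCS (-0.99 to -0.64), and so had opposite signs. Its change by -1.32 (-1.58 to -1.06) was the largest of the 8 genes other than *Mefv*. The gene model *Gm45205*, which was not listed, overlaps *Pycard* on the opposite strand with 485 identical bases. The library was directional, but the sources used here do not state whether counting used the strand.

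*Casp1* (chromosome 9, 5298517 to 5307265, plus strand), the gene of the protease that processes the interleukins, was at 38.9 and 38.7 CPM in control at the early and late time and at 30.4 and 44.8 CPM in MCS. The control libraries were alike, and the MCS libraries lay below them at ZT2 and above them at ZT14. The log2 ratio of MCS to control was -0.36 at ZT2 (-0.60 to -0.12) and 0.21 at ZT14 (0.01 to 0.42). ZT2 against ZT14 gave a log2 ratio of 0.01 in control (-0.21 to 0.23) and -0.56 in MCS (-0.79 to -0.34). Neighboring *Casp4* (chromosome 9, 5308828 to 5336783, plus strand) was at 20.7, 20.1, 18.0 and 18.1 CPM. Its log2 ratio of MCS to control was -0.20 at ZT2 (-0.52 to 0.12) and -0.15 at ZT14 (-0.46 to 0.15), and its day difference was 0.04 in control (-0.27 to 0.35) and -0.01 in MCS (-0.33 to 0.31).

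*Gsdmd* (chromosome 15, 75862327 to 75867408, plus strand), the gene of the pore-forming protein, was at 46.1, 42.4, 47.7 and 55.4 CPM. MCS at ZT14 was the highest, with a log2 ratio to control of 0.39 (0.20 to 0.58), and the day difference was 0.12 in control (-0.09 to 0.33) and -0.22 in MCS (-0.41 to -0.03). *Il18* (chromosome 9, 50554827 to 50581840, plus strand) was at 6.35, 5.05, 5.80 and 4.40 CPM, from 43 to 55 reads. Its log2 ratio of ZT2 to ZT14 was 0.32 in control (-0.26 to 0.93) and 0.39 in MCS (-0.22 to 1.02), and the depth could not show a difference between them. *Il18* overlaps *Bco2* and *Tex12* on the opposite strand, of which *Bco2* was listed.

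*Pycard*, *Casp1* and *Gsdmd* were highest in the same library, MCS at ZT14. Markers of large peritoneal macrophages, the resident type, 6 of 6 listed and led by *Alox15*, summed to 5416, 4989, 4828 and 7045 CPM, and the highest sum was in MCS at ZT14. *Alox15* alone made up 4015, 3712, 3607 and 5532 CPM of it. *Gata6*, *Icam2* and *Cd5l* were highest in that library too, while *Timd4* (442, 421, 415 and 412 CPM) and *Vsig4* (284, 238, 229 and 208 CPM) were lowest there. Their part in these values was not tested. Transcript length moved with the ratio at ZT14 too. In genes that averaged above 3 on the log2 CPM scale, the ZT14 ratio of MCS to control had a median of 0.15 on the log2 scale in the shortest of 5 length classes, which holds *Casp1*, *Casp4* and *Gsdmd*, and -0.12 in the longest. *Casp1* at 0.21 lay inside the quartiles of its class (-0.05 to 0.37), and *Gsdmd* at 0.39 lay just above them. *Pycard* at 0.99 lay far above the quartiles of its class (-0.16 to 0.17), and so did *Nlrp3* at 0.91 (-0.21 to 0.10). Length was that of the longest coding transcript, 3800 bases for *Pycard*. The median coding transcript of *Pycard*, 2146.5 bases, is in the range of the next shorter class, with quartiles of -0.12 and 0.23. *Nlrc4*, at -0.56, lay below the quartiles of the class it shares with *Nlrp3*. The part of length in these values was not tested.

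Per kilobase of the longest coding transcript, the mean level over the 4 libraries was 26.7 CPM per kilobase for *Gsdmd*, 25.5 for *Casp1*, 14.8 for *Pycard*, 13.4 for *Casp4*, 11.6 for *Aim2*, 8.49 for *Nlrp3*, 8.22 for *Nlrc4*, 6.10 for *Il18* and 0.819 for *Mefv*. With the median length of the coding transcripts *Gsdmd* again came first, *Il18* 8th and *Mefv* last, while *Pycard* and *Casp1*, *Casp4* and *Aim2*, and *Nlrp3* and *Nlrc4* changed places, so the order within these pairs depends on the transcript assumed.

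**Figure D3:**
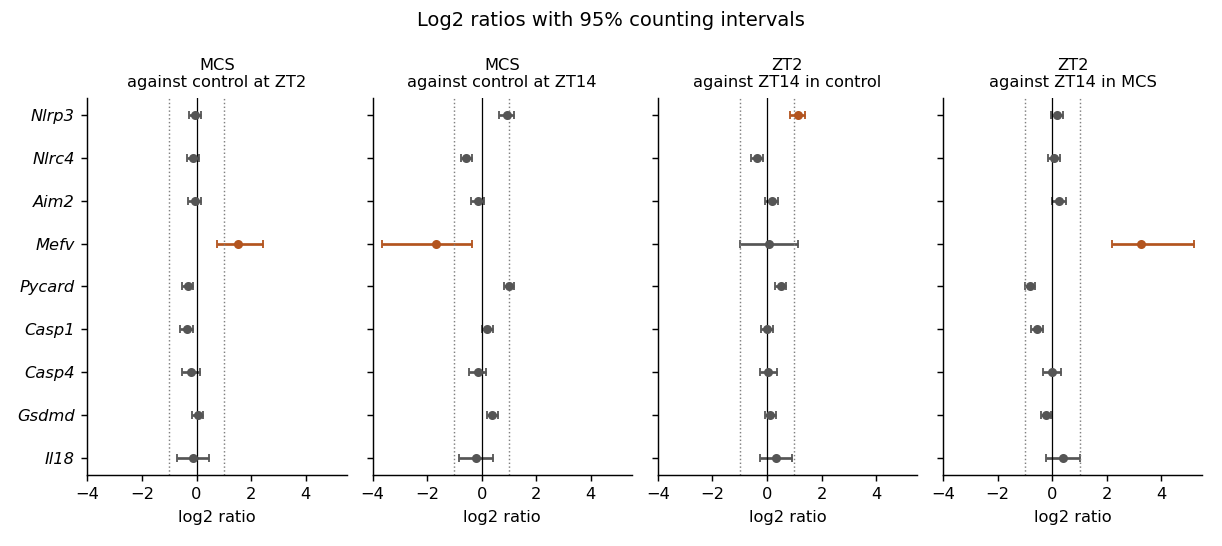
Log2 ratios of the 9 genes in the 4 comparisons (horizontal axes), with exact conditional binomial 95% intervals that cover counting error. Dotted lines mark a ratio of 1 in either direction and colored points lie past it, which are *Mefv* at 1.52, -1.69 and 3.27 and *Nlrp3* at 1.13.

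Counted over the set, each comparison had 1 of 9 genes past a log2 ratio of 1. For MCS against control at ZT2 this was *Mefv*, higher, where 2.21% of 12612 genes passed. For MCS against control at ZT14 it was *Mefv*, lower, where 3.40% of 12368 genes passed. For ZT2 against ZT14 it was *Nlrp3* in control, where 3.61% of 12465 genes passed, and *Mefv* in MCS, where 5.83% of 12534 passed, higher at ZT2 in both cases. The 9 genes had a median log2 ratio of -0.13, -0.15, 0.12 and 0.07 in these comparisons, against 0.00, 0.00, 0.00 and 0.01 over all genes tested. Of the 9 genes, 2 had a ratio above 0 for MCS against control at ZT2 and 4 at ZT14, beside 50.6% and 50.4% of all genes. For ZT2 against ZT14, 8 of 9 were above 0 in control and 5 of 9 in MCS, beside 49.5% and 50.6%. Of these 8 genes in control, *Nlrp3* and *Pycard* had counting intervals that lay above 0, and those of the other six included 0.

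At a log2 ratio of 0.5 the comparisons separated further. For MCS against control at ZT2, *Mefv* alone passed, with 10.4% of all genes. At ZT14, 4 of 9 genes passed, *Nlrp3* and *Pycard* higher and *Nlrc4* and *Mefv* lower in MCS, with 16.7% of all genes. For ZT2 against ZT14, *Nlrp3* and *Pycard* passed in control, both higher at ZT2, with 15.3% of all genes. In MCS, *Mefv* passed as higher and *Pycard* and *Casp1* as lower at ZT2, with 23.6% of all genes.

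A count test over the 4 libraries, edgeR's quasi-likelihood test (additive in time and MCS, Benjamini-Hochberg adjustment), left 1 residual degree of freedom and takes the MCS effect to be equal at ZT2 and ZT14. It called 2.38% of 12404 genes for time and 0.193% for MCS, and 0 of 9 inflammasome genes for either term. Without adjustment, 2 of 9 had a p under 0.05 for time, where 10.4% of all genes did, and 0 of 9 for MCS, where 2.45% did. In this edgeR fit the time term of *Nlrp3* was a log2 fold change of 0.64 with an adjusted p of 0.118, and that of *Mefv* was 1.65 with an adjusted p of 0.121. For MCS, edgeR gave *Nlrp3* a log2 fold change of 0.42 and an adjusted p of 1.

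The REV-ERB genes were low at ZT2 and higher at ZT14. *Nr1d1* was at 4.27 CPM in control at ZT2, 26.0 CPM in control at ZT14, 4.52 CPM with MCS at ZT2 and 8.38 CPM with MCS at ZT14. *Nr1d2* was at 27.8, 94.3, 28.7 and 47.6 CPM. In both genes the ZT2 libraries were alike, and MCS at ZT14 lay between them and control at ZT14. The log2 ratio of ZT2 to ZT14 was -2.58 in control and -0.88 in MCS for *Nr1d1*, and -1.76 and -0.73 for *Nr1d2*. Without an added constant, the day difference changed by 1.72 for *Nr1d1* (0.97 to 2.46) and by 1.03 for *Nr1d2* (0.72 to 1.33). MCS lay below control at ZT14 by a log2 ratio of -1.62 for *Nr1d1* (-2.01 to -1.27) and -0.98 for *Nr1d2* (-1.15 to -0.82). The edgeR test called the time term of both, with a log2 fold change of -1.79 and an adjusted p of 0.000141 for *Nr1d1* and of -1.25 and 7.78e-05 for *Nr1d2*, and called neither for MCS.

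Set in the order of rising *Nr1d1*, the libraries ran from control at ZT2 through MCS at ZT2 and MCS at ZT14 to control at ZT14. The ZT2 libraries had 37 and 39 reads of *Nr1d1*, a log2 ratio of MCS to control of 0.08 (-0.60 to 0.77). Which of them comes first is thus within counting error, and each count of genes by this order depends on it. *Nlrp3* had 41.6, 40.1, 35.9 and 19.0 CPM along this order, and was the 1 of the 9 genes whose order was opposite to that of *Nr1d1*. Among 12511 genes above the expression minimum, 4.04% had this order, which was looked for after the values had been seen. The counting intervals of the first 3 values of *Nlrp3* overlapped, and the order thus rests on the last. Among other genes described as REV-ERB targets, *Nfil3* and *Ccl2*, 2 of 7 tested, had the same order. *Nfil3*, a clock transcription factor that represses through the D-box, was at 69.2 CPM in control at ZT2, 45.5 CPM with MCS at ZT2, 34.3 CPM with MCS at ZT14 and 18.2 CPM in control at ZT14. *Ccl2*, the gene of a monocyte chemoattractant, had between 15 and 22 reads in each library.

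*Arntl*, which encodes the clock activator BMAL1 and is the textbook target of REV-ERB, was at 32.3, 33.6, 19.0 and 14.7 CPM in the order of rising *Nr1d1*. It missed the opposite order only between the ZT2 libraries, whose order by *Nr1d1* is within counting error. Its day difference was 1.13 in control (0.83 to 1.44) and 0.82 in MCS (0.55 to 1.10), and the change of -0.31 (-0.71 to 0.09) was within counting error. *Nlrp3* and *Arntl* thus had the same log2 ratio of 1.13 in control and differed in MCS, where *Nlrp3* was at 0.16. *Cry1*, a clock repressor, went the other way, with 8.20, 10.8, 22.7 and 27.0 CPM. Of the inflammasome genes, *Pycard*, *Casp1* and *Gsdmd* had a change of the day difference in the same direction as *Nlrp3* and beyond counting error. These changes were -1.32 (-1.58 to -1.06), -0.57 (-0.88 to -0.26) and -0.34 (-0.61 to -0.06). *Nlrc4* and *Mefv* changed the other way beyond counting error, by 0.44 (0.13 to 0.74) and 3.43 (1.79 to 5.07). The share of all genes with such changes was not counted. In the length class of *Casp1* and *Gsdmd*, the median log2 ratio of ZT2 to ZT14 was 0.02 in control. In MCS it was -0.17 with quartiles of -0.45 and 0.08, and *Gsdmd* at -0.22 lay inside them. The values of *Pycard* did not follow the order of *Nr1d1*, since MCS at ZT14 lay above both ZT2 libraries. *Nlrc4* was highest in the library where *Nr1d1* was highest. *Casp1*, *Casp4*, *Gsdmd* and *Aim2* had day differences between 0.01 and 0.17 in control, where *Nr1d1* differed most.

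**Figure D4:**
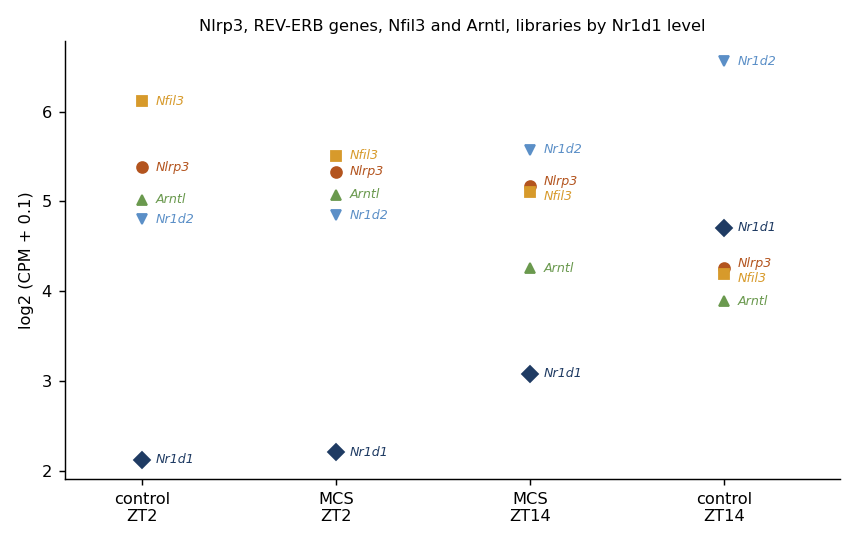
Log2 (CPM + 0.1) of *Nlrp3*, *Nfil3*, *Arntl*, *Nr1d1* and *Nr1d2* (vertical axis), with the 4 libraries arranged by their *Nr1d1* level, 1 point per gene and library. *Nr1d1* goes from 4.27 to 26.0 CPM from left to right and *Nlrp3* from 41.6 to 19.0 CPM, with most of the latter difference in the last library.

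The promoter sequences show what these genes share or lack near their start sites. RefSeq gave windows of 300 bases, 250 before and 50 after the start (GRCm38.p6), for 8 of the 9 genes, 10 windows in all. They were searched on both strands for the half-site that ROR and REV-ERB proteins bind (AGGTCA), its longer form (TAGGTCA, which contains the shorter), the E-box of CLOCK and BMAL1 (CACGTG) and the D-box (TTATGNAA). Neither window of *Nlrp3* held any of these, and the 250 bases before its first start site are printed to show this. *Nfil3* held the longer half-site. *Arntl* held it in a single window, and the other window of *Arntl* held no match. Of the REV-ERB genes, *Nr1d2* held the shorter half-site and *Nr1d1* held no match. Among the inflammasome genes, *Mefv* held the half-site, *Nlrc4* a D-box and *Casp1* an E-box, and the windows of *Aim2*, *Pycard*, *Casp4* and *Il18* held none. Sequences run 5′ to 3′ on the strand of the gene, and capitals mark the match (in *Nfil3* its reverse complement).
*Nlrp3*, chr11:59541319-59541568, plus strand: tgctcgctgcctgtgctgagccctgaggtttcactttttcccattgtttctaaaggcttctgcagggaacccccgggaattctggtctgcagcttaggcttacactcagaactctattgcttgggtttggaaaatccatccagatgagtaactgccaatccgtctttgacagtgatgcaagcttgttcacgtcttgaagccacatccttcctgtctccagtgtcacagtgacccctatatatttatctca
*Nfil3*, chr13:52981019-52981078, minus strand: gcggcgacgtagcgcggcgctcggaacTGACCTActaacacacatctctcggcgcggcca
*Arntl*, chr7:113207529-113207558, plus strand: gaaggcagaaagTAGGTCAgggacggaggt
*Mefv*, chr16:3718104-3718133, minus strand: gttgcacgagagAGGTCAttatcgtttgcc
*Nlrc4*, chr17:74459140-74459199, minus strand: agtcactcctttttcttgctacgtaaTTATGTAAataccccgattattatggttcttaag
*Casp1*, chr9:5298353-5298412, plus strand: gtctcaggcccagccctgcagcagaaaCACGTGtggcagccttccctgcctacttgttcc

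Positions were counted from 0 at the first transcribed base. Matches began at -12 in *Nfil3*, 30 in *Arntl*, 3 in *Mefv*, -65 in *Nlrc4*, -137 in *Casp1* and -77 in *Nr1d2*, which is not printed. Of 32851 mouse promoter windows of the same length, 16.3% held AGGTCA, 2.61% held TAGGTCA, 7.15% held CACGTG and 3.38% held TTATGNAA. A match describes these letters in this window and says nothing of binding, and the lack of a match leaves sites outside the window unseen.

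The values most like those of *Nlrp3* were found by the root mean square distance of log2 (CPM + 0.1), after subtracting each gene's mean over the 4 libraries, among 9208 genes. The nearest was *F630111L10Rik*, a long noncoding RNA on chromosome 3, at a distance of 0.021 with 33.5, 15.2, 31.9 and 27.8 CPM in control at ZT2, control at ZT14, MCS at ZT2 and MCS at ZT14. *Ctsl*, the gene of the lysosomal protease cathepsin L, followed at 0.073 with 276, 135, 253 and 225 CPM. The other three were *Cdk20* at 0.076, the long noncoding RNA *AW112010* at 0.080 and *Pole*, a subunit of a DNA polymerase, at 0.088. Each of the 5 had its low value in control at ZT14, with a day difference between 1.02 and 1.33 in control and between 0.16 and 0.35 in MCS. *Arntl* ranked 121st at 0.257 and *Nfil3* 373rd at 0.325. With 4 libraries, a short distance is a description of 4 values.

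Around the 9 genes, 52 further genes of the pathway were examined as other sensors, regulators, interferon-induced GTPases and downstream substrates, cytokines and receptors. For MCS against control at ZT2, 3 of the 50 that passed the expression minimum were past a log2 ratio of 1, beside 2.21% of all genes, and at ZT14 0 of 48 were, beside 3.40%. For ZT2 against ZT14 in control, 2 of 48 were higher and 2 lower, beside 2.42% and 1.19% of all genes. In MCS 7 of 50 were higher and 0 lower, beside 3.96% and 1.87%. The median log2 ratio of these genes was 0.04, 0.04, 0.04 and 0.01, against 0.00, 0.00, 0.00 and 0.01 over all genes.

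The NAIP genes, whose proteins choose the ligand of NLRC4, were abundant and steady. *Naip2* was at 166, 161, 160 and 169 CPM and *Naip5* at 168, 164, 164 and 184 CPM. *Nlrp12*, a sensor of myeloid cells, had 10, 5, 28 and 7 reads, and MCS was above control at ZT2 by a log2 ratio of 1.42 (0.41 to 2.70). *Pydc3*, which encodes a pyrin-domain protein, was at 3.81, 2.20, 4.29 and 1.84 CPM. *Nlrp6*, with 2, 0, 1 and 4 reads, was under the expression minimum in each comparison. Of the 12 further sensors, *Nlrp12* and *Pydc3* were those above the minimum and past a log2 ratio of 1 in a comparison.

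Of the regulators, 0 of 17 were past a log2 ratio of 1 in any comparison, beside between 2.21% and 5.83% of all genes. With so few genes, this count does not set the regulators apart. *Nek7*, whose protein binds NLRP3 for its assembly, was at 93.0, 99.9, 97.2 and 84.4 CPM. *Txnip*, described as a link from oxidative stress to NLRP3, was at 795, 668, 821 and 837 CPM, lowest in the same library as *Nlrp3*, with a log2 ratio of MCS to control of 0.33 at ZT14 (0.28 to 0.37). The order opposite to *Nr1d1* was seen in 2 of 17 regulators, *Serpinb1a*, an inhibitor of inflammatory proteases, and *Ripk3*, a kinase of necroptosis. Of the interferon-induced GTPases, 0 of 8 were past a log2 ratio of 1 in any comparison, beside the same shares of all genes. *Gbp9* among them had the order opposite to *Nr1d1*. Among the further sensors and the priming genes 0 of 11 each had it. *Serpinb1a*, *Ripk3*, *Gbp9* and *Ccl2* were named for that order after their values were seen.

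Among the 15 substrates, cytokines and receptors, *Il1a*, *Il1b* and the receptor genes *Il18r1*, *Il18rap*, *Il1r1* and *Il1r2* were past a log2 ratio of 1 in at least 1 comparison. *Il1rn*, the gene of the interleukin-1 receptor antagonist, was at 6.35, 6.59, 7.66 and 7.77 CPM, with no log2 ratio above 0.27. *Il1b*, the interleukin-1β gene, was at 1.73, 3.95, 7.08 and 2.15 CPM, from 15 to 61 reads, and was highest in MCS at ZT2 with *Mefv*, *Nlrp12* and the neutrophil markers, whose part was not tested here either. Its log2 ratio of ZT2 to ZT14 was -1.15 in control (-2.17 to -0.29) and 1.68 in MCS (0.98 to 2.51). *Il1a*, whose product needs no caspase-1 to be active, was at 4.74, 16.1, 8.12 and 9.10 CPM, with a day difference of -1.75 in control (-2.31 to -1.26) and -0.16 in MCS (-0.64 to 0.30). In control, *Il1a* was thus higher at ZT14 while *Nlrp3* was higher at ZT2, and both differences were smaller in MCS.

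*Il18r1* and *Il18rap*, the 2 chains of the interleukin-18 receptor, were higher at ZT2 in both groups. *Il18r1* was at 20.8 and 8.24 CPM in control at the early and late time and at 27.5 and 10.0 CPM in MCS, and *Il18rap* was at 21.0, 8.90, 33.3 and 10.5 CPM in the same order. Markers of T and natural killer cells, which are known to carry this receptor, summed over 7 of 8 listed genes to 44.7, 25.9, 55.8 and 29.6 CPM, led by *Cd3e* at 8.89, 4.72, 11.0 and 6.54 CPM. Mast cell markers, 6 of 6 listed and led by *Cma1*, summed to 1818, 1183, 2240 and 952 CPM. The part of these cells in the receptor values was not tested. The interleukin-1 receptors were near the detection floor, with at most 18 reads for *Il1r2*, the decoy receptor, and for *Il1r1*.

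Transcription of *Nlrp3* and *Il1b* is induced through NF-κB, the step known as priming. Among 12 genes of NF-κB subunits and their induced genes, 3 of 11 tested were past a log2 ratio of 1 in control, all lower at ZT2, where 1.19% of all genes were. *Tnf*, the gene of tumor necrosis factor, was at 2.54, 6.48, 1.97 and 2.66 CPM. The neutrophil chemokine gene *Cxcl1* was at 1.15, 8.13, 3.48 and 3.68 CPM, and *Cxcl2* was at 3.81, 10.9, 3.94 and 7.57 CPM. At ZT14, *Tnf* and *Cxcl1* were lower in MCS than in control, with log2 ratios of -1.25 (-2.01 to -0.60) and -1.12 (-1.76 to -0.55). The median log2 ratio of the 11 tested genes was -0.32 for MCS against control at ZT14 and -0.23 for ZT2 against ZT14 in control, against 0.00 over all genes in both. In each of these comparisons 1 of the 11 genes had a ratio above 0, beside 50.4% and 49.5% of all genes. These comparisons share the control library at ZT14, in which *Tnf*, *Cxcl1*, *Cxcl2* and *Il1a* were at their highest and *Nlrp3* at its lowest value.

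**Figure D5:**
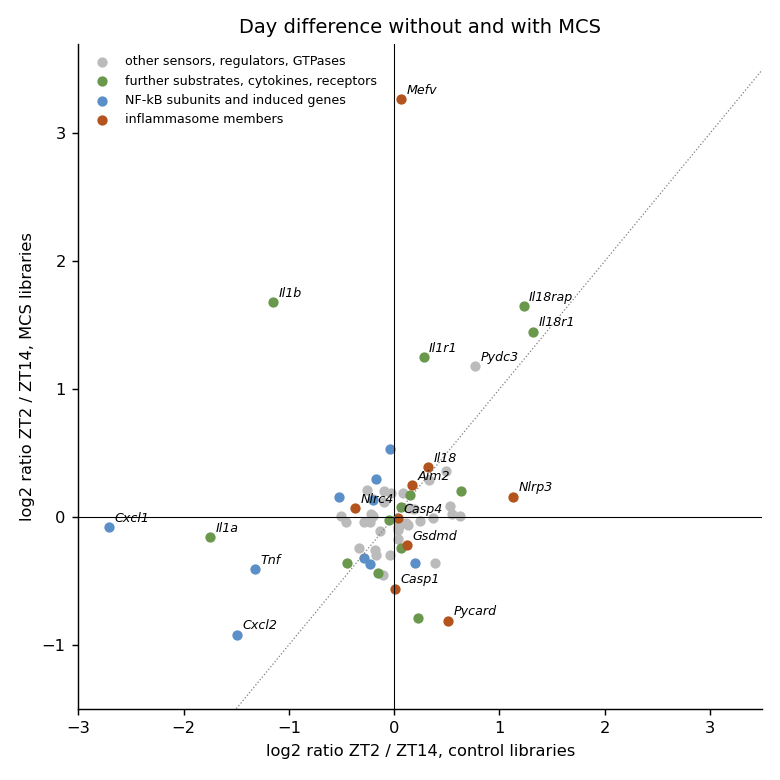
Log2 ratio of ZT2 to ZT14 in the control libraries (horizontal axis) against that in the MCS libraries (vertical axis), 1 point per gene of the inflammasome, pathway and priming lists that passed the expression minimum in both. Points on the dotted line have equal day differences; *Nlrp3* lies at 1.13 and 0.16, *Pycard* at 0.51 and -0.81, and *Mefv* at 0.07 and 3.27.

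Markers of other cell types were summed as well, and such sums of RNA do not count cells in the gate. The sum of small macrophage and monocyte markers, led by *H2-Aa*, was 1583, 1528, 1892 and 1530 CPM, and that of general macrophage markers, led by *Lyz2*, lay between 24701 and 27143 CPM. B cell markers, 5 of 6 listed and led by *Cd79a*, summed to 1044, 1279, 1004 and 901 CPM, highest in control at ZT14, where *Nlrc4*, *Tnf*, *Cxcl1* and *Cxcl2* were highest. Dendritic cell markers, 6 of 6 listed and led by *Cd209a*, summed to 42.5, 34.2, 63.1 and 36.0 CPM. Mesothelial and fibroblast markers, 7 of 8 listed and led by *Dcn*, summed to 20.2, 6.26, 26.1 and 11.9 CPM. Eosinophil markers, 3 of 7 listed and led by *Ccr3*, summed to 16.7, 9.78, 28.8 and 56.1 CPM, and red blood cell markers, 4 of 5 listed and led by *Hba-a2*, to 2.54, 1.10, 23.8 and 72.4 CPM. The sums of the dendritic, mesothelial, eosinophil, red blood cell and T and natural killer cell markers were each lowest in control at ZT14. In that library *Nlrp3* was lowest too. Of the dendritic markers, *Cd209a* (25.1, 17.2, 38.6 and 21.0 CPM) and *Flt3* were lowest there. *Zbtb46* (3.93, 5.38, 3.48 and 5.11 CPM) and *Xcr1* (2.77, 3.63, 2.90 and 2.45 CPM) were highest there. *Clec9a* and *Siglech*, and *Klrb1c*, *Prf1* and *Wt1* of the other lists, were not lowest there. The part of other cell types in the inflammasome values was not tested.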

How the data were processed

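RNA-seq of peritoneal macrophages was available as 4 libraries, 1 per condition, grouped by the labels. The authors depleted ribosomal RNA, prepared directional libraries and, per the submitters' processing notes, used Trimmomatic 0.38, RSEM 1.3.0, Bowtie 2 and edgeR with build mm10. The deposited values are CPM per gene symbol, normalized by the authors with edgeR. Their annotation version is not stated in the sources used here.

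Of the values, 100% were whole multiples of the CPM of 1 read within 0.05 read, and reads were recovered in this way. RSEM estimates need not be whole, so intervals are approximate. The floor of 3 reads was 0.307 to 0.348 CPM. Log2 ratios used CPM + 0.1. A gene passed if its log2 ratio lay beyond 1 in either direction and its log2 mean was above 0, and no test exists between single libraries. Ratios carry exact conditional binomial (Clopper-Pearson) 95% intervals, levels exact Poisson ones and changes of the day difference normal approximations on the reads. All cover counting error only. As an alternative, edgeR's quasi-likelihood test was run with time and MCS as additive terms on 12404 genes of 40 or more reads over the libraries and a common dispersion of 0.0196 and a threshold of 0.05 on the adjusted p. Further alternatives were 1 and 0.01 CPM as the added constant, no minimum or a log2 mean above 3, and rescaling by edgeR TMM factors or to a median ratio of 1. The scripts were tested on simulated data.

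The 9 genes and the lists were chosen with earlier results of these data known. Named genes were the 9 genes, *Nr1d1* and *Nr1d2*, members of the pathway, priming and REV-ERB target lists past a log2 ratio of 1 (at most 4 per list), *Il1b*, *Nek7*, *Txnip*, *Naip2*, *Naip5* and *Arntl*, the 5 genes most like *Nlrp3* and the most abundant gene of each marker list. *Il18r1* and *Il1r1* were named beyond the limit of 4 per list. *Adgre1*, *Itgam*, *S100a9*, *Ltf*, *Il1rn*, *Nlrp6*, *Gata6*, *Icam2*, *Cd5l*, *Timd4* and *Vsig4* were added after their values were seen, as were the further single cell type markers named.

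Positions and transcript lengths came from GENCODE M21 (GRCm38, the assembly of mm10) and promoters from RefSeq (GRCm38.p6). Similar transcripts were sought with blastn 2.17.0 at 200 or more aligned bases. Computations used R 4.3.3 (edgeR 4.0.16) and Python 3.11.15 (scipy 1.17.1, numpy 2.4.6, matplotlib 3.10.9, pandas 2.3.3).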

Additional observations from a re-analysis of the deposited data

Results flagged for a closer look

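For 3 of the 9 genes, MCS and control differed in opposite directions at the 2 time points. *Mefv* had a log2 ratio of MCS to control of 1.52 at ZT2 and -1.69 at ZT14. *Pycard* had -0.33 at ZT2 and 0.99 at ZT14, and *Casp1* had -0.36 and 0.21. With 1 library per condition, the difference between the time points was not tested. The 95% counting interval of each of these 6 ratios lay on 1 side of 0. The share of all genes with such a pair of ratios was not counted, so 3 of 9 cannot be set against it.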

How the results depend on the processing

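The count of inflammasome genes past a log2 ratio of 1 was 1 in each of the 4 comparisons. It became 0 for MCS against control at ZT2, MCS against control at ZT14 and ZT2 against ZT14 in MCS when a log2 mean above 3 was required, which leaves *Mefv* out. It became 0 for MCS against control at ZT14 with 1 CPM as the added constant, where *Mefv* was at -0.92. The edgeR test called 0 of 9 genes for either term. It tested time and MCS over the 4 libraries and none of the 4 comparisons by itself, so it gives no count for them. With 0.01 CPM, no minimum, TMM factors or a median ratio of 1 the count was 1 in each comparison. Of 176 log2 ratios of the 9 genes and the REV-ERB genes under other constants and scalings, 1 moved beyond its counting interval. It was that of *Mefv* for ZT2 against ZT14 in MCS, 2.17 with 1 CPM against 3.27. A change of sign was looked for only in ratios past 1 in either direction, and 0 of these changed sign. Rescaling moved the median of all genes by at most 0.01. No paired analysis was possible because each condition has 1 library. No replicate could be left out. Depth limited *Mefv* and *Il18* most, with 5 to 50 and 43 to 55 reads per library.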
